A study of Mus musculus with 6 samples.

Results

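Apod, Lcn2, Apoe, Clu, Apol6, Apol9a and Apol9b are 7 genes of secreted and intracellular lipid-binding proteins, taken by symbol from the 11835 genes in the deposited expression values of C2C12 cells. They were selected on their FPKM (fragments scaled by transcript length and library size) in this same contrast, with earlier results known, so their differences between the groups are a description and the fitted values printed for them are not independent evidence. C2C12 is a mouse myoblast line, and every sample was grown as this line, moved to medium with 2% horse serum to differentiate, and given the label mouse myotube. The control group (siNC, n = 3) was transfected with NC siRNA, a negative control, and the knockdown group (siCNN3, n = 3) with CNN3 siRNA against calponin 3, an actin-binding protein. All libraries therefore went through transfection of a small duplex RNA, and no untransfected sample was analysed here.

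Apolipoproteins wrap and carry lipids, and lipocalins are small barrel-shaped proteins that hold one hydrophobic ligand in a pocket. Apod encodes apolipoprotein D, which despite its name is a lipocalin and binds arachidonic acid and steroids. Lcn2 encodes lipocalin 2, which captures bacterial siderophores and is secreted in acute inflammation. Apoe encodes apolipoprotein E, the ligand by which lipoproteins bind receptors of the LDL receptor family, and Clu encodes clusterin (apolipoprotein J), an extracellular chaperone. Apol6, Apol9a and Apol9b belong to the APOL family, whose proteins are mostly kept inside the cell and whose genes are known to respond to interferon.

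Of the 7 genes, Apod differed most. Apod was barely detected in siNC and among the better expressed genes in siCNN3. Apol9a and Apol9b were the most abundant of the 7 in both groups, and their siCNN3 libraries lay above every siNC library at about 3 times the siNC mean. Clu was lower in every siCNN3 library than in any siNC library, at 48.9% of the siNC mean. Apol6, Apoe and Lcn2 overlapped between the groups.

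The sequences of the Apol9 pair are shown first because they set how far the values of the pair can be read apart. Apol9a (chromosome 15, 77403789 to 77411135, minus strand) and Apol9b (77729039 to 77736382, plus strand) lie 317.9 kb apart on GRCm38. Their coding sequences, taken from GENCODE transcripts, are both 933 nucleotides long and differed at 14 positions, which is an identity of 98.5%. The 60 coding nucleotides with the most differences (positions 494 to 553, counted from the start codon) held 6 of them, shown in capitals.
Apol9a: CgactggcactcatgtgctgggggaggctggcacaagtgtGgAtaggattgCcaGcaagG
Apol9b: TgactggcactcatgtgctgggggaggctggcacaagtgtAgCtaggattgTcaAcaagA
Of all 50-nucleotide stretches of the 3 listed Apol9 transcripts, between 51.38% and 57.46% also occur in transcripts of the partner gene. A read confined to such a stretch cannot by itself be assigned to 1 gene, and the length of the actual reads was not used here. For the 11 listed transcripts of the other 5 genes, that share was at most 2.87%.

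The promoter sequences of the pair were alike too. RefSeq windows (GRCm38.p6, 250 bases before to 50 after a transcription start) were matched for 5 of the 7 genes, namely Apod, Lcn2, Apoe, Apol9a and Apol9b. They were searched on both strands for the letters GAAANNGAAA (the interferon-stimulated response element, ISRE), TTCNNNGAA (the gamma-activated site, GAS) and GGGNNTNNCC (a form of the NF-kB site). All 4 windows of Apol9a and Apol9b held 2 overlapping ISRE matches, whereas 3.44% of all 32851 windows held any. The windows of each gene overlap, and all 4 hold the same stretch with these matches, so they are not separate observations. The windows of Apod, Apoe and Lcn2 held no match to any of the 3 motifs, which says only that these letters are not in these windows. The GAS letters were in 8.3% and the NF-kB letters in 18.4% of all windows. One window of Apol9a and one of Apol9b held the NF-kB letters, which in that stretch lie upstream of the ISRE. The windows of Apol9a (chr15:77410985-77411284, minus strand) and Apol9b (chr15:77728871-77729170, plus strand) are shown with the ISRE matches in capitals, followed by that of Apod (chr16:31314759-31315058, minus strand), the gene with the largest difference, which has none.
Apol9a: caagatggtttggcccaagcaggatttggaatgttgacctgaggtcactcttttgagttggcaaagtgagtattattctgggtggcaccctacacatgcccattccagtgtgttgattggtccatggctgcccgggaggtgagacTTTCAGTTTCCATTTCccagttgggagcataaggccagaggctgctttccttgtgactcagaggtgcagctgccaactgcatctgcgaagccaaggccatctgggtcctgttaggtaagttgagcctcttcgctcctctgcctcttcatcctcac
Apol9b: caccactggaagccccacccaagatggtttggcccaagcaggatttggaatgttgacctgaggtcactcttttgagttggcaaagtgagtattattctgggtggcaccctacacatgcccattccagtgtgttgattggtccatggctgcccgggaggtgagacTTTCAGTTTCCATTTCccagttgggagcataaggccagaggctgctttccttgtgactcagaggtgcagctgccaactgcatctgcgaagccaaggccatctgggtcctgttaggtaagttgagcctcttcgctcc
Apod: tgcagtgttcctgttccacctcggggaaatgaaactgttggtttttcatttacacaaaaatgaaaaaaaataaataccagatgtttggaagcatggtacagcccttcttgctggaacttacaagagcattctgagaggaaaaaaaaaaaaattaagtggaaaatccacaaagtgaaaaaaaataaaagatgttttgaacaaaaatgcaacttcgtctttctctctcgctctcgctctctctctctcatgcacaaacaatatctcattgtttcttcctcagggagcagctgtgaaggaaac
The Apol9a and Apol9b windows shared a stretch of 281 bases without a difference, which includes the ISRE matches. In Apol9a the matches started 105 and 99 bases before the transcription start, and in Apol9b 86 and 80 bases before it. In the APOL family as a whole, 8 of the 12 genes with a window held the ISRE letters in at least 1 window, as did 3.99% of all 27025 genes. Among the 6 of these that had FPKM in the files, the 3 with a match were Apol9a, Apol9b and Apol10b, and the 3 without were Apol7a, Apol7b and Apol8.

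The knockdown and the libraries were checked before the genes were compared. In the order of replicates 1, 2 and 3, which holds for every list of 3 values, Cnn3 measured 62.8, 61.4 and 62.8 FPKM under siNC against 19.0, 39.2 and 25.6 FPKM under siCNN3, with no overlap. Cnn3 was at 44.8% of the siNC mean and was itself not called (log2 fold change of -1.19, adjusted p = 0.0669, limma). The summed FPKM of a library ranged from 322621 to 355591, and the read depth is unknown, so no counting error can be given. The 11593 genes averaging 0.5 FPKM or more, all 7 genes included, were fitted with limma on log2(FPKM + 1), and a gene is called where its Benjamini-Hochberg adjusted p over all of them is below 0.05. Fold changes are on that scale, which understates the change of low genes. The labels do not say that replicates were separate cultures, so the p-values may measure technical spread only.
Markers of most other cell types were few. Of 15 macrophage markers, 3 had FPKM (Cd68, Cd14 and Lyz2), summing to between 20.1 and 27.1 FPKM in siNC and between 16.3 and 19.2 FPKM in siCNN3, and Adgre1, Csf1r and Ptprc were not among the listed genes. Listed were also 2 of 8 adipocyte markers (sums of 10.9 to 13.9 FPKM in siNC and 5.04 to 6.62 FPKM in siCNN3) and 1 of 9 neutrophil markers (Camp, 2.41 to 6.06 and 0.885 to 2.29 FPKM). The same held for 1 of 9 astrocyte and Schwann cell markers (Slc1a3, 2.14 to 5.07 and 1.33 to 3.05 FPKM) and 1 of 8 endothelial markers (Tek, 0.681 to 1.37 and 0.733 to 1.24 FPKM). Of 8 fibroblast markers 6 were listed, with sums of 761.5 to 1063.7 FPKM in siNC and 407.6 to 550.8 FPKM in siCNN3. Most of these sums came from Col3a1 and Dcn (means of 772.1 and 157.9 FPKM in siNC). Col1a1 (10.5 FPKM), Pdgfra (9.88 FPKM), Dpt (1.28 FPKM) and Pi16 (0.733 FPKM) had far lower siNC means. Among these lists limma called 1 gene, the adipocyte marker Fabp4, lower, and 3 of 6 tested fibroblast markers, 1 of 1 neutrophil marker and 1 of 2 adipocyte markers had an unadjusted p below 0.05, beside 6.14% of all tested genes as lower. All 6 fibroblast markers had a log2 fold change below 0, and 3 of these were below every control, beside 9.35% of all tested genes. Of 13 myotube markers 11 were listed, with sums of 187.5 to 228.8 FPKM in siNC and 109.9 to 125.9 FPKM in siCNN3. Myog, a defining transcription factor, was at 1.23 to 3.07 FPKM and the creatine kinase gene Ckm below 1 FPKM in siNC. All 10 tested myotube markers were lower in each siCNN3 library than in any control, beside 9.35% of all tested genes, and 5 were called lower, beside 0.336%. Fewer cells of a type and less RNA per cell cannot be told apart in these bulk samples, and the part that muscle or fibroblast differences have in the values below was not tested.

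By level, the order in siNC was Apol9a (105.6 ± 61.3 FPKM, SD, n = 3), Apol9b (103.2 ± 52.3), Clu (7.03 ± 2.04), Apol6 (4.11 ± 2.65), Apoe (2.48 ± 0.646), Lcn2 (0.983 ± 0.837) and Apod (0.304 ± 0.362). Neighbours in this order overlapped over libraries, except that Apol9b lay wholly above Clu and Apoe wholly above Lcn2. In siCNN3 the order was Apol9a (334.8 ± 27.3 FPKM, SD, n = 3), Apol9b (311.4 ± 15.8), Apod (42.7 ± 24.3), Apol6 (17.0 ± 9.24), Clu (3.44 ± 0.561), Apoe (2.34 ± 1.22) and Lcn2 (0.639 ± 0.172). Here Apol9b was wholly above Apod, Apol6 wholly above Clu and Apoe wholly above Lcn2, and the other neighbours overlapped. The Apod mean was above 0.6% of the tested genes in siNC and above 86.3% in siCNN3, and the Lcn2 mean above 5.6% and 2.3%.

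**Figure D1:**
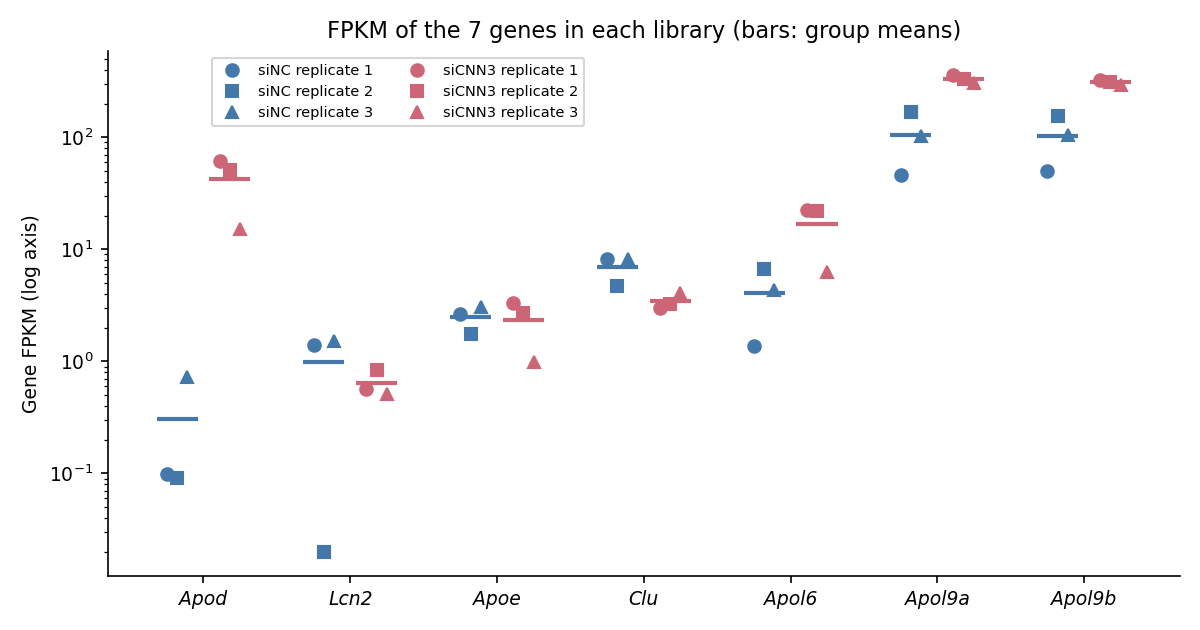
FPKM of the 7 genes (log axis) in the 3 siNC libraries (blue) and the 3 siCNN3 libraries (red), with the marker shape giving the replicate number and horizontal bars the group means. The Apod groups are farthest apart (means of 0.304 and 42.7 FPKM), the Apol9a and Apol9b points sit highest, and siNC replicate 2 stands alone at 0.02 FPKM for Lcn2.

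Counted over the genes, 1 of the 7 was called higher (Apod) and 0 were called lower, compared with 1.73% of all tested genes called higher and 0.336% called lower by limma. At an unadjusted p below 0.05 it was 5 of the 7, and 1152 higher and 712 lower genes of all tested, together 16.1%. For 3 of the 7 (Apod, Apol9a and Apol9b) every siCNN3 library was above every siNC library, as for 13.8% of tested genes, and for 1 (Clu) every siCNN3 library was below, as for 9.35%. The median log2 fold change of the 7 was 1.73, and that of all tested genes was 0.03. Since the genes were picked with this contrast in view, these counts describe the selection.

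**Figure D2:**
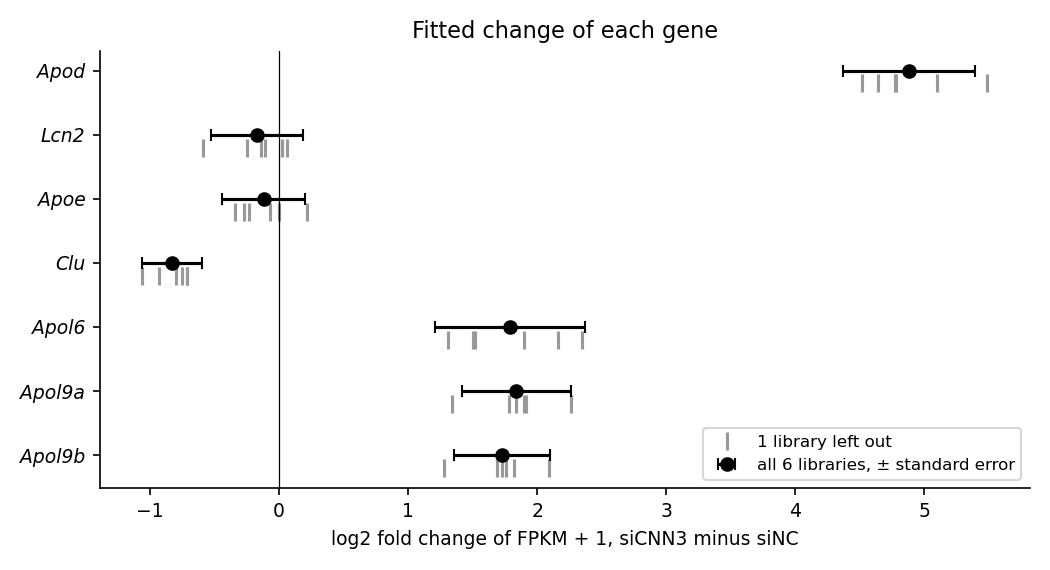
Log2 fold change of FPKM + 1 (siCNN3 minus siNC) of the 7 genes with all 6 libraries (black points, bars are standard errors from limma) and with each library left out in turn (grey ticks). Apod lies at 4.88, the 3 APOL genes between 1.73 and 1.84, Clu at -0.83, and the ticks of Apoe and Lcn2 fall on both sides of 0.

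Among the lipocalins, Apod (chromosome 16, 31296192 to 31314808) measured 0.0991, 0.0908 and 0.721 FPKM under siNC against 61.3, 51.6 and 15.1 FPKM under siCNN3. The lowest siCNN3 library was above the highest siNC library, and the siCNN3 libraries differed among themselves by 4.05 times. The ratio of the group means was 140.5, and siNC replicate 3 moved it most, as the ratio was 449.4 without that library and between 104.0 and 185.8 without any other. Apod rose by 4.88 on the log2 scale (standard error 0.51, adjusted p = 0.0099, limma), and by 6.85 with a pseudocount of 0.1 in place of 1. It was not called without siNC replicate 3 (adjusted p = 0.0579, limma) or without siCNN3 replicate 2 (adjusted p = 0.0503, limma).
Both of its listed transcripts contributed. Apod-203 (2074 nucleotides, 6 exons) measured 0.0991, 0.0908 and 0.485 FPKM under siNC against 50.5, 35.2 and 11.3 FPKM under siCNN3, where it made up 68.2% to 82.4% of the gene. Apod-202 (1070 nucleotides, 5 exons) was listed at 0, 0 and 0.236 FPKM under siNC against 10.8, 16.4 and 3.82 FPKM under siCNN3. An exact 0 in such files may be an estimate that failed. Both transcripts were above every siNC library in each siCNN3 library.
Lcn2 (chromosome 2, 32384633 to 32388252) measured 1.40, 0.02 and 1.53 FPKM under siNC against 0.573, 0.834 and 0.509 FPKM under siCNN3. The siNC libraries lay on both sides of the siCNN3 libraries, with siNC replicate 2 far below its group. On the log2 scale Lcn2 differed by -0.17 (limma standard error 0.358 and adjusted p = 0.853), smaller than the spread between replicates, and the sign turned with single libraries. The other lipocalin genes that were tested (Orm1, Orm3 and C8g) had log2 fold changes of -0.75, -0.75 and -0.16 with 0 called by limma and 2 at an unadjusted p below 0.05, a threshold that 6.14% of all tested genes passed as lower. Orm1 and Orm3 were below every control in each siCNN3 library, as were 9.35% of all tested genes. Apod was the 1 gene called of the 5 tested among 20 lipocalin family names, beside 1.73% higher and 0.336% lower of all tested genes. Apod was itself picked with this contrast in view.

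The APOL genes were next. Apol9a measured 46.1, 168.5 and 102.3 FPKM under siNC against 362.7, 333.6 and 308.0 FPKM under siCNN3, a ratio of means of 3.17. Apol9b measured 49.7, 154.3 and 105.6 FPKM under siNC against 327.0, 311.5 and 295.5 FPKM under siCNN3, a ratio of 3.02. In both genes the groups did not overlap, siNC replicate 1 was lowest and siNC replicate 2 highest of the controls, and the siNC libraries spread far more (3.66 and 3.11 times between the lowest and highest) than the siCNN3 libraries (1.18 and 1.11 times). Their log2 fold changes were 1.84 (standard error 0.421) and 1.73 (standard error 0.372), and neither was called (adjusted p = 0.0882 and 0.0772, limma). Single controls moved both genes in opposite directions. Without siNC replicate 2 both were called, with log2 fold changes of 2.26 and 2.09 (adjusted p = 0.0361 and 0.0384, limma), and without siNC replicate 1 these were 1.34 and 1.28 (adjusted p = 0.0789 and 0.0537, limma).
Since the pair shares much of its sequence, its sum is the more secure value. Apol9a and Apol9b together measured 95.7, 322.8 and 207.8 FPKM under siNC against 689.7, 645.1 and 603.6 FPKM under siCNN3, with means of 208.8 ± 113.5 and 646.1 ± 43.1 FPKM (SD, n = 3). The sum was 3.09 times higher in siCNN3. Apol9b held 47.4% to 51.9% of the sum over the 6 libraries.
Apol6 (chromosome 15, 77044729 to 77057106) measured 1.36, 6.64 and 4.34 FPKM under siNC against 22.6, 22.1 and 6.32 FPKM under siCNN3. In this sum over transcripts the groups overlapped, as siCNN3 replicate 3 was just below siNC replicate 2 and far below its own group. On the log2 scale Apol6 differed by 1.79 (limma standard error 0.584 and adjusted p = 0.196), with a range from 1.31 without siNC replicate 1 to 2.35 without siCNN3 replicate 3. The transcript Apol6-206 (2314 nucleotides) was listed at 0 in siNC replicate 1 and made up 41.0% and 60.8% of the gene in the other two siNC libraries, which lowers the gene's sum in that library.

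**Figure D3:**
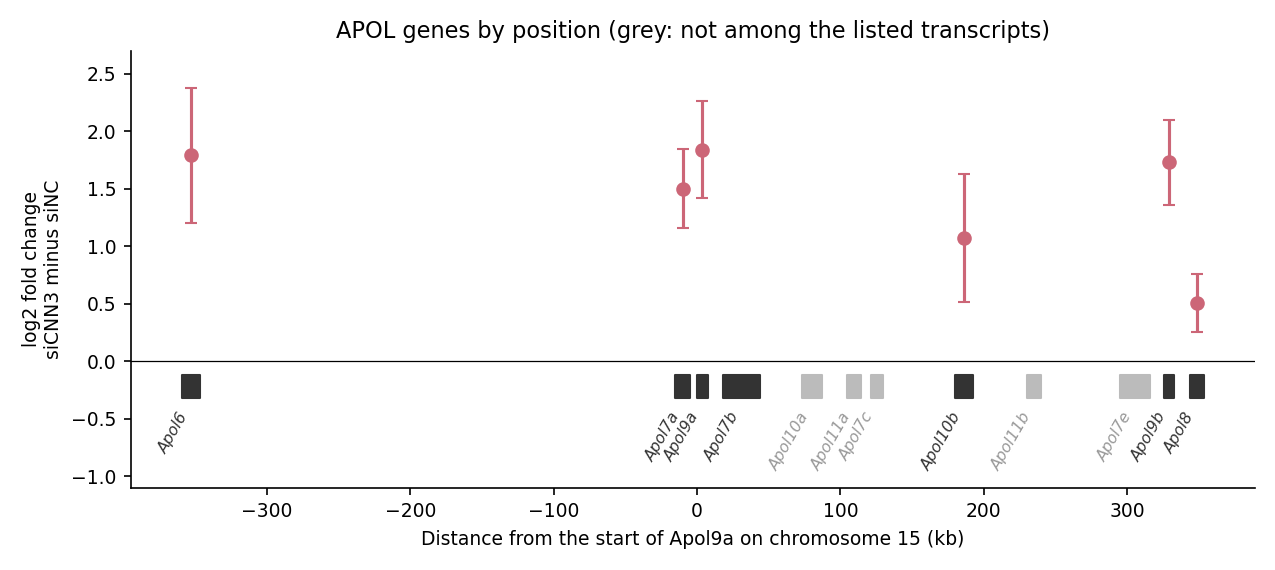
Log2 fold change (siCNN3 minus siNC, points with standard errors from limma) of the tested APOL genes against distance in kb from the start of Apol9a on chromosome 15, with gene bodies as boxes (black where the files list the gene, grey where they do not). The 6 tested genes lie between 0.51 (Apol8) and 1.84 (Apol9a), and none lies below 0.

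The listed APOL genes all sit in 712.3 kb of chromosome 15. Apart from the 3 already described, Apol7a measured 1.98, 6.42 and 2.72 FPKM under siNC against 13.9, 10.7 and 9.71 FPKM under siCNN3 with no overlap (log2 fold change 1.5, limma adjusted p = 0.0881). Apol10b measured 8.75, 30.7 and 22.7 FPKM under siNC against 55.1, 58.2 and 19.3 FPKM under siCNN3, where replicate 3 lay within the siNC range as for Apol6. Apol8 measured 3.51, 3.93 and 2.98 FPKM under siNC against 3.92, 4.67 and 8.16 FPKM under siCNN3, with siCNN3 replicate 3 the highest instead. Apol7b stayed below 1 FPKM in every library and was not tested. Of the 3 tested APOL genes other than Apol6, Apol9a and Apol9b, limma called 0, 1 had an unadjusted p below 0.05 (16.1% of all tested genes had), and the median log2 fold change was 1.07.

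Clu and Apoe, the secreted apolipoproteins, did not share that direction. Clu (chromosome 14, 65968483 to 65981547) measured 8.17, 4.68 and 8.24 FPKM under siNC against 2.99, 3.26 and 4.07 FPKM under siCNN3. Every siCNN3 library was lower than every siNC library, although siNC replicate 2 came close to siCNN3 replicate 3. On the log2 scale Clu differed by -0.83 (limma standard error 0.231 and adjusted p = 0.138), short of a call. Its full-length transcript Clu-201 (1810 nucleotides, 9 exons) measured 6.26, 4.26 and 7.59 FPKM under siNC against 2.99, 3.26 and 4.07 FPKM under siCNN3. The short transcript Clu-209 was at 1.91, 0.419 and 0.646 FPKM in siNC and was listed at 0 in all 3 siCNN3 libraries, so a part of the difference in the gene's sum came from this transcript. For Clu-201 alone the log2 fold change was -0.64 (standard error 0.242).
Apoe (chromosome 7, 19696109 to 19699188) measured 2.64, 1.77 and 3.03 FPKM under siNC against 3.35, 2.69 and 0.988 FPKM under siCNN3. The groups overlapped fully, with siCNN3 replicate 1 the highest and siCNN3 replicate 3 the lowest of the 6 libraries. On the log2 scale Apoe differed by -0.12 (limma standard error 0.319 and adjusted p = 0.892). The files list 3 of the 11 annotated Apoe transcripts (Apoe-204, Apoe-205 and Apoe-206), and Apoe-201 was not analysed here, so the summed value may cover only part of the gene's RNA. The share of Apoe-206 was 41.4% to 50.9% in siNC and 57.6%, 7.96% and 0% in siCNN3.

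**Figure D4:**
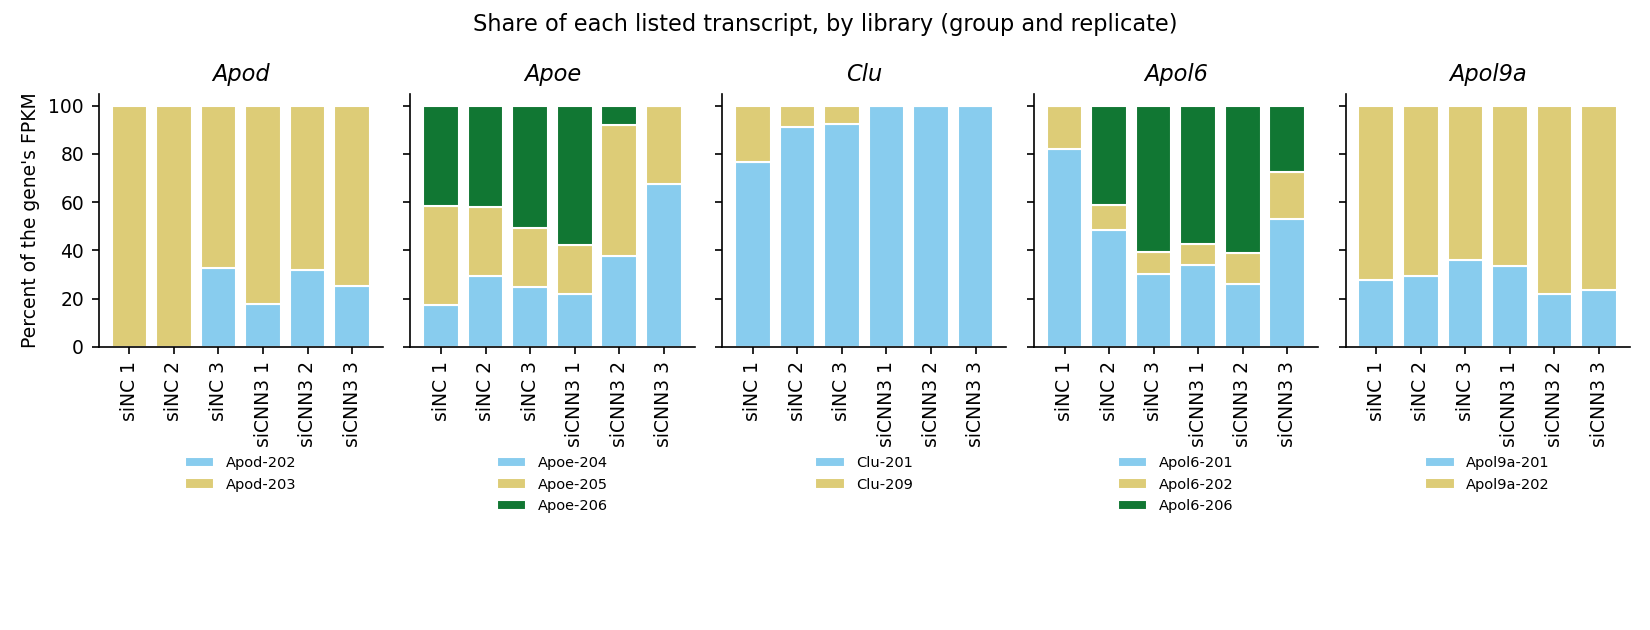
Percent of each gene's FPKM held by each listed transcript (stacked bars, colours in the key) in the 6 libraries, for the 5 genes with more than one listed transcript. The Apol9a split is steady (Apol9a-202 at 63.8% to 78.0%), Clu-209 is present in siNC only, and the Apoe split varies within siCNN3.

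The genes most like each of the 7 were sought by Pearson's r of log2(FPKM + 1) over the 6 libraries among genes averaging 1 FPKM or more. With 6 points in 2 groups, r mostly reads the contrast itself, and it is given as a description. Apol9a was nearest to its twin Apol9b (r = 0.999), then to Ggps1 (r = 0.999) and Ifi27l2a (r = 0.9986). Apol9b was nearest to Ifi27l2a (r = 0.9993), Apol9a and Ifi44 (r = 0.9983), the former and the latter being interferon-induced genes. Ifi27l2a measured 12.1, 95.9 and 45.9 FPKM under siNC against 305.6, 305.2 and 288.9 FPKM under siCNN3, with the controls in the same order as in Apol9a.
Apol6 was nearest to Ascc2, Rars and Oxr1 (r between 0.9982 and 0.9995), which had a siCNN3 replicate 3 close to the controls as Apol6 had. Rars, a cytosolic tRNA synthetase gene, measured 39.6, 66.1 and 55.5 FPKM under siNC against 104.4, 103.0 and 66.7 FPKM under siCNN3. Apod was nearest to Rhbdd1, Lonp1 and Llph (r between 0.9977 and 0.9984). Lonp1, a mitochondrial protease gene, measured 46.2, 44.2 and 49.4 FPKM under siNC against 101.4, 101.0 and 75.2 FPKM under siCNN3, so its controls were level where those of the Apol9 pair were spread.
Clu was nearest to Slc16a1, Cux1 and Psme4 (r between 0.9851 and 0.9901). For Apoe the nearest genes were Angptl4, Psmd2 and Cul7 (r between 0.9653 and 0.987), and for Lcn2 Itpripl1, Uxs1 and Ing4 (r between 0.9549 and 0.9746). Angptl4, which encodes an inhibitor of lipoprotein lipase, measured 60.2, 41.3 and 65.0 FPKM under siNC against 65.2, 53.5 and 24.9 FPKM under siCNN3, and like Apoe was lowest in siCNN3 replicate 3. Between the 7 genes themselves, r over the 6 libraries was 0.851 to 0.902 between Apod, Apol6 and Apol9a, -0.852 to -0.936 between Clu and each of Apod, Apol6, Apol9a and Apol9b, and 0.097 between Apod and Apoe.

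Genes around the 7 were taken from lists of the same pathways, of which 66 were tested. Of these, 3 were called higher (Npc2, Irf7 and Il6, 4.55%) and 1 lower (Cp, 1.52%), beside 1.73% and 0.336% of all tested genes, and their median log2 fold change was -0.14.
Irf7 encodes a transcription factor of the interferon response. Irf7 measured 0.796, 11.8 and 5.33 FPKM under siNC against 130.8, 121.5 and 76.6 FPKM under siCNN3, and rose by 4.36 on the log2 scale (adjusted p = 0.0305, limma). Irf7 had the same order of control libraries as the Apol9 pair, lowest in siNC replicate 1 and highest in siNC replicate 2. Of the 18 tested regulators of Lcn2 and APOL transcription, 2 were called higher (Irf7 and Il6) and 0 lower by limma, 6 had an unadjusted p below 0.05 (16.1% of all tested genes had), 5 were higher in each siCNN3 library than in any control (13.8% of all tested genes were), and 1 (Il6ra, log2 fold change -0.59) was lower in each (9.35% of all tested genes were). The interferon regulatory factor genes Irf1 and Irf9 were among those without overlap (log2 fold changes of 1.79 and 1.55) and were not called. Nfkbiz, Cebpb and Cebpd, known regulators of Lcn2, were among the 12 that overlapped, with log2 fold changes of 0.05, -0.00 and -0.28. Il6, a cytokine that induces acute phase genes, measured 13.2, 7.59 and 5.66 FPKM under siNC against 30.6, 30.7 and 26.7 FPKM under siCNN3 and rose by 1.70 (adjusted p = 0.0333, limma). With siNC replicate 3 left out, or replicate 1 or 2 of siCNN3, limma called neither Irf7 (adjusted p of 0.126, 0.115 and 0.121) nor Il6 (adjusted p of 0.106, 0.133 and 0.14). Il6 was not called without siNC replicate 2 either (adjusted p = 0.09, limma), and over all alternatives the adjusted p reached 0.175 for Irf7 and 0.169 for Il6.

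**Figure D5:**
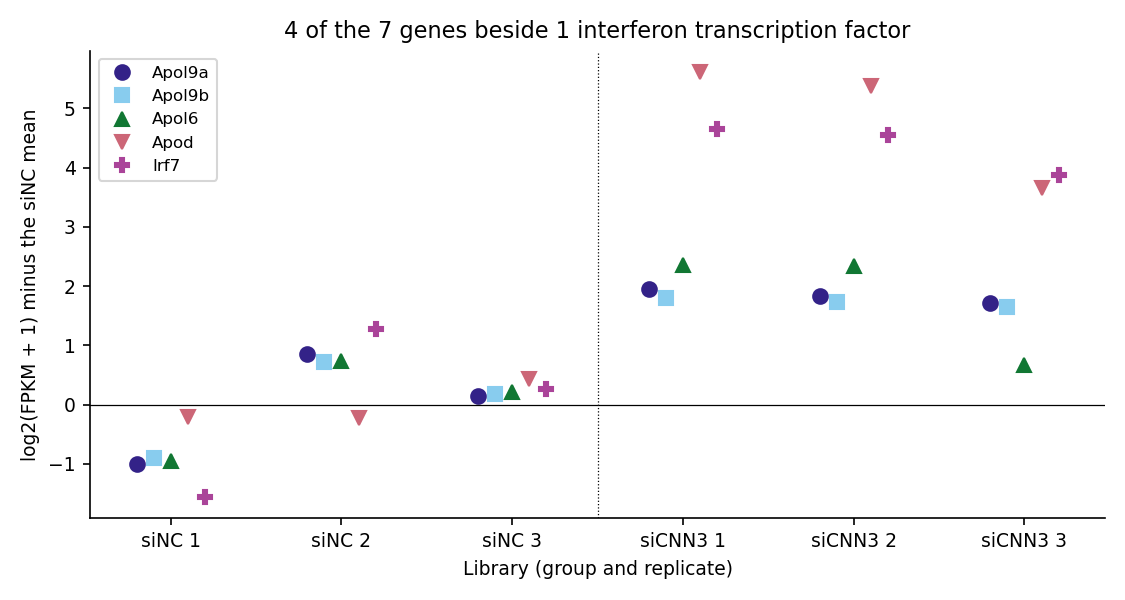
Log2(FPKM + 1) of Apol9a, Apol9b, Apol6, Apod and Irf7 in each library, minus the gene's siNC mean, with the dotted line between the groups. In the controls, the APOL genes and Irf7 are lowest in replicate 1 and highest in replicate 2 while Apod is not, and Apol6 and Apod drop in siCNN3 replicate 3.

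Lcn2 belongs by function to the acute phase proteins. Of the 10 tested genes of this list limma called 1 lower, beside 0.336% of all tested genes, and 9 were lower in each siCNN3 library than in any control, beside 9.35% of all tested genes. All 10 had a log2 fold change below 0, with a median of -0.76. Cp, the copper-carrying ferroxidase ceruloplasmin, measured 155.1, 141.6 and 164.3 FPKM under siNC against 98.2, 105.7 and 107.9 FPKM under siCNN3, and fell by 0.56 on the log2 scale (adjusted p = 0.0499, limma), a call that was lost in 13 of the 16 alternatives (adjusted p of 0.0511 to 0.217), among them each single library left out except siCNN3 replicate 3 (adjusted p of 0.0798 to 0.217 for the other 5, limma). The haptoglobin gene Hp measured 1.32, 6.01 and 3.10 FPKM under siNC against 0.333, 0.270 and 0.106 FPKM under siCNN3 and was not called. Saa3, an apolipoprotein of the acute phase, measured 24.0, 158.5 and 73.3 FPKM under siNC against 33.1, 23.7 and 5.91 FPKM under siCNN3 and overlapped.
Receptors for these ligands came next. Of 12 tested receptor genes limma called 0, beside 1.73% higher and 0.336% lower of all tested genes, and 1 had an unadjusted p below 0.05, beside 16.1% of all tested genes. In 3 of the 12 every siCNN3 library was lower than any control and in 1 higher, beside 9.35% and 13.8% of all tested genes. Of these receptor genes 9 had a log2 fold change below 0 and 3 above, with a median of -0.12. Lrp1, a receptor of Apoe, measured 140.7, 157.7 and 142.8 FPKM under siNC against 112.4, 108.6 and 123.9 FPKM under siCNN3. Its groups did not overlap, and it was not called (log2 fold change -0.35, adjusted p = 0.157, limma). Bsg, which encodes basigin, a binding partner of apolipoprotein D, was at 564.5 to 939.5 FPKM over the siCNN3 libraries and at 618.6 to 860.7 FPKM over the siNC libraries.
Genes of cholesterol efflux and lipoprotein remodelling had 19 tested members, of which limma called 1 higher (1.73% of all tested genes were) and 4 had an unadjusted p below 0.05 (in either direction, 16.1% of all tested genes had). In 4 of the 19 every siCNN3 library was higher than any control and in 2 lower, beside 13.8% and 9.35% of all tested genes, and the median of their log2 fold changes was 0.03. The called gene was Npc2, which encodes a carrier of cholesterol out of lysosomes. It measured 145.9, 160.0 and 156.1 FPKM under siNC against 249.7, 251.4 and 289.3 FPKM under siCNN3 and rose by 0.77 (adjusted p = 0.0194, limma). Npc2 lost its call when siNC replicate 1 or 3, or siCNN3 replicate 1 or 2, was left out (adjusted p of 0.0641, 0.108, 0.082 and 0.0939, limma). Lipg, which encodes endothelial lipase, measured 3.37, 3.42 and 3.78 FPKM under siNC against 14.2, 12.1 and 5.84 FPKM under siCNN3 without overlap and was not called (adjusted p = 0.0885, limma). Ch25h, which encodes cholesterol 25-hydroxylase, did not overlap either (log2 fold change 1.06, adjusted p = 0.226, limma), and the efflux transporter gene Abca1 did (log2 fold change -0.23). The related transporter genes Abca2 and Abca7 were the pair below every control (log2 fold changes of -0.35 and -0.39) and were not called. The other apolipoprotein genes outside the APOL family that were tested, Apoa1 and Apoa4, were at 9.16 and 9.91 FPKM in siNC replicate 1 and below 1 FPKM in the other 5 libraries.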

How the data were processed

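RNA of 3 siNC and 3 siCNN3 samples was sequenced, and the groups and replicate numbers were taken from the sample titles. The authors deposited FPKM per Ensembl transcript for each library. The submitters' processing notes name Bowtie 0.12.2 and the builds mm8 and mm10, and the program that estimated FPKM is not given in the sources used here. Transcript identifiers were matched without version to GENCODE M21 (GRCm38, the assembly of mm10), which placed 23949 of 24023, and FPKM were summed by symbol. Genes averaging 0.5 FPKM or more over the libraries were fitted on log2(FPKM + 1) with limma 3.58.1 in R 4.3.3 (mean-variance trend, Benjamini-Hochberg over 11593 genes). The fit was also run on simulated data with independent noise for each gene. It called 0 genes where 0 were changed, and 183 where 200 were changed, of which 179 were changed genes. No simulated library deviated as a whole, so the effect of such a library was not tested. FPKM hold no read counts, so no count model was used, and 3 against 3 libraries cannot give an exact permutation p below 0.1.

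Coordinates, exons and coding sequences are those of GENCODE, and 14 of the 47 annotated transcripts of the 7 genes had FPKM. Sequences were aligned with Biopython 1.88, and promoter windows are from RefSeq (GRCm38.p6). Figures were made with matplotlib 3.10.9 in Python 3.11.15.

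The 7 genes and the gene lists were chosen with earlier results of these data known, and 1 gene of the lists is not reported here and was left out of their counts. Genes are named where they are 1 of the 7, are among up to 3 called genes of a pathway list in each direction, are among the 3 genes most like 1 of the 7, are the nearest tested gene on either side of 1 of the 7, or are Cnn3. Other genes (Orm1, Orm3, C8g, Apol7a, Apol7b, Apol8, Apol10b, Nfkbiz, Cebpb, Cebpd, Irf1, Irf9, Il6ra, Lipg, Ch25h, Hp, Saa3, Lrp1, Bsg, Abca1, Abca2, Abca7, Apoa1, Apoa4 and cell type markers) were chosen after their values were seen. Alternatives were a pseudocount of 0.1, quantile normalization, scaling by the median of ratios, the low-value filter dropped or set to 5 FPKM, limma without a trend, a test of each gene alone, a block for the replicate number, leaving out single libraries, and single transcripts in place of sums. A sum over transcripts above 0 in all 6 libraries was added after the data were seen.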

Additional observations from a re-analysis of the deposited data

How the results depend on the processing

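The number of the 7 genes called (1, Apod) was 0 with a test of each gene alone and ranged from 0 to 3 with 1 library left out, as Apol9a and Apol9b were called without siNC replicate 2 and Apod was lost without siNC replicate 3 or siCNN3 replicate 2. In the 16 alternatives, the log2 fold change of Apod was between 4.52 and 6.85, of Apol9a between 1.34 and 2.26, of Apol9b between 1.28 and 2.09, of Apol6 between 1.31 and 2.35 and of Clu between -1.06 and -0.64. Of the 7 genes, those 5 kept their sign. Apoe turned to 0.13 in sums over transcripts above 0 in all 6 libraries and to 0.22 without siCNN3 replicate 3, with -0.34 to 0.22 over single libraries left out. Lcn2 turned to 0.13 with a pseudocount of 0.1, to 0.02 without siNC replicate 1 and to 0.06 without siNC replicate 3, with -0.59 to 0.06 over single libraries left out.
Over all genes, the 200 higher and 39 lower calls became 0 and 0 with a test of each gene alone (a Student test, in which 1084 higher and 716 lower genes had an unadjusted p below 0.05), 92 and 16 with each transcript on its own, and 16 to 443 and 4 to 159 with 1 library left out. Higher calls were 125 in sums over transcripts above 0 in all libraries, and lower calls were 93 after quantile normalization and 63 with median-of-ratios scaling. The share of calls that were higher was 83.7%, and 68.2% and 77.7% under those scalings. The 4 pathway genes called became 0 with a test of each gene alone, 2 with median-of-ratios scaling or with a pseudocount of 0.1, and 0 to 8 with 1 library left out.
With the replicate number as a block, 62 genes were called higher and 6 lower, with 0 of the pathway genes and 1 of the 7. The labels name no shared culture or day, so whether the numbers pair the libraries is unknown. The deviations of same-numbered libraries from their group means correlated at -0.278, 0.314 and -0.0247. With 3 libraries in a group, such correlations cannot decide it.
The unknown depth limits what can be said of Lcn2, Apoe and the Apod controls, which lay near or below 1 to 3 FPKM.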

Other observations

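The nearest tested gene on either side of each of the 7 was read as a local comparison. Beside Apod, Ppp1r2 (20.9 kb away) averaged 23.7 ± 2.58 FPKM under siNC and 31.1 ± 3.97 FPKM under siCNN3 (SD, n = 3), with every siCNN3 library higher, and Dlg1 lay 348.6 kb away. Neither was called by limma (log2 fold changes of 0.37 and 0.03), where Apod had 4.88. Beside Apoe, Clptm1 and Tomm40 had log2 fold changes of 0.02 and 0.10, and beside Lcn2, 1110008P14Rik and Ptges2 had 0.17 and 0.14.
Beside Clu, Scara3 (14.5 kb away) averaged 6.05 ± 1.42 FPKM under siNC and 3.86 ± 0.558 FPKM under siCNN3 (SD, n = 3), with every siCNN3 library lower as in Clu, and differed by -0.52 on the log2 scale (limma adjusted p = 0.267). Ptk2b, on the far side of Clu, had -0.31. Beside Apol6, 1110038F14Rik and Rbfox2, which are not APOL genes, had -0.06 and 0.25. The neighbours of the Apol9 pair were APOL genes.
Among the 7 genes, siNC replicate 2 had the highest Apol6, Apol9a and Apol9b and the lowest Apod, Clu, Apoe and Lcn2 of its group, and siCNN3 replicate 3 had the lowest Apod, Apol6, Apol9a, Apol9b, Apoe and Lcn2 and the highest Clu of its group.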
